A study of Prunus persica with 18 samples.

Results

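The 120 genes described here were expressed more highly in basal than in apical axillary buds of peach at the first 2 samplings and stood at about the same level in both bud types at the last. They were taken from 26873 genes with a count table, of which 17757 averaged at least 1 CPM (a gene's raw count divided by the total of its library and multiplied by 1000000) over the 18 libraries. Of those, 3644 had all basal libraries above all apical libraries both at 45 and at 58 days after full bloom (DAFB), and 3222 of the 3644 also had a ratio of basal to apical mean CPM between 0.75 and 1.33 at 79 DAFB. The 120 with the largest basal to apical ratio, taken as the smaller of the ratios at the first 2 samplings, were kept. The position differences at every time point therefore chose the genes and are given as a description, without a test.

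Axillary buds of untreated shoots of the cultivar Platinet 1 were profiled by RNA-Seq at 45 (T1), 58 (T3) and 79 (T5) DAFB. Basal buds came from the proximal and apical buds from the distal part of the same shoots, which makes 6 groups (basal and apical buds at T1, T3 and T5) of 3 libraries each. Each library is a pool of buds from several shoots of 1 cultivar in 1 season, and no group received a treatment. The total counts ranged from 21114469 to 47286272 per library.

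An axillary bud holds a shoot meristem enclosed by leaf primordia and bud scales, and in peach such meristems pass from vegetative growth to flower formation during the summer before bloom. Buds along a shoot are not of the same age, since those at the base were laid down first and those toward the tip later. A gene that is high at the base first and equal along the shoot later can reach that state by a rise in the apical buds, by a fall in the basal buds, or by both. As whole buds were sampled, fewer cells of a type and less RNA per cell cannot be told apart in any of these levels.

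Of 15 genes that the study names by identifier, among them the meristem genes PpTFL1, PpCEN and PpAP1, none was a member. As a check of the tissue, PpTFL1, which keeps shoot meristems vegetative in Arabidopsis, averaged between 7.13 and 26.2 CPM in the 6 groups, whereas PpAP1, a floral meristem identity gene, averaged between 0.354 and 0.865 CPM. The members carry identifiers only, and no product, name or sequence was paired with them in the tables used here. They are therefore described by identifier and pattern, with no role assigned.

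The members ranged from 1.01 to 531 CPM in their mean over the libraries, with a median of 6.84. The mean was under 5 CPM in 54 of them and 50 CPM or more in 9. The ratio of basal to apical mean CPM had a median of 2.10 at T1 (range 1.84 to 8.35), 2.44 at T3 (1.86 to 6.43) and 1.04 at T5 (0.753 to 1.32). Over all expressed genes, basal and apical libraries were separated with basal higher in 30.0% at T1 and in 31.7% at T3. The ratio was larger at T3 than at T1 in 87 members. At T5 the basal and apical libraries overlapped in 115 members, which the T5 window of the choice makes likely, while over all expressed genes they were separated with basal higher in 10.4% and with apical higher in 20.3%. The 5 members that did not overlap (PRUPE_1G140500, PRUPE_7G271400, PRUPE_6G108100, PRUPE_8G187400 and PRUPE_6G239200) were all higher in basal buds.

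How much the choice of genes shaped this was read from the 224 genes that were separated at T1 and T3 with ratios at least as large as that of the last member. Of these, 120 lay in the T5 window, 89 lay above it with basal buds still higher, and 15 lay below it. Levelling was therefore the state of 53.6% of the strongly basal-high genes, against 88.4% of all 3644 basal-high genes, most of which had smaller ratios to begin with.

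Before the changes over time, 2 apical libraries have to be set apart. For each member, the level in a library was taken as log2 of its CPM over the mean of that gene in all libraries, and the median over the 120 members was compared between libraries. In basal buds the library medians lay between 0.33 and 0.61 at T1, between 0.28 and 0.46 at T3, and between -0.07 and 0.20 at T5. In apical buds they lay between -0.76 and -0.58 at T1, between -1.56 and -0.64 at T3, and between -0.44 and 0.41 at T5. The apical groups at T3 and T5 thus spread more widely than the other 4 groups, as the plot of library levels shows.

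**Figure D1:**
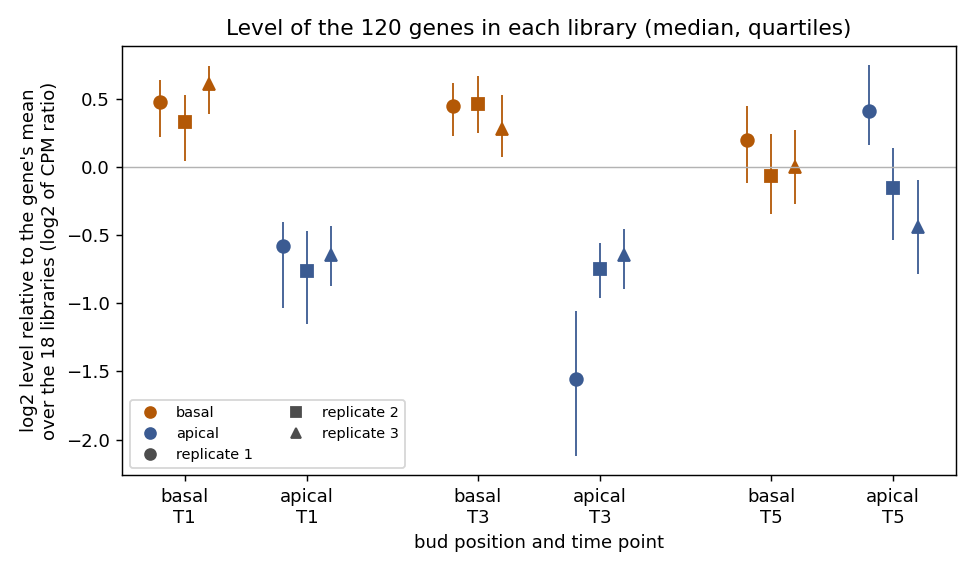
Median (symbol) and quartiles (bar) over the 120 genes of the log2 level in each of the 18 libraries, relative to each gene's mean over all libraries, for basal and apical buds at T1, T3 and T5. Apical T3 replicate 1 (-1.56) sits below and apical T5 replicate 1 (0.41) above the other libraries of their groups.

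Apical T3 replicate 1 was the lowest of its group in 98 of the 120 members (81.7%), with a median of -0.87 on the log2 scale against the mean of the other 2 libraries. Apical T5 replicate 1 was the highest of its group in 102 members (85.0%), with a median of 0.69. Neither tendency was limited to the members. Apical T3 replicate 1 was lowest in 77.3% of the 3644 basal-high genes and in 46.8% of all expressed genes, and apical T5 replicate 1 was highest in 84.5% and in 54.8%. The highest library exceeded the lowest more than 2-fold in 62 members in the apical T3 group and in 51 in the apical T5 group, but in no more than 6 members in any of the other 4 groups.

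The level state at T5 was an average over unlike apical libraries. Set against the basal T5 mean of the same gene, apical T5 replicate 1 had a median of 0.35 (log2), replicate 2 of -0.22 and replicate 3 of -0.49. Replicate 1 lay above the basal mean in 101 members, replicate 2 in 32 and replicate 3 in 13. Apical T5 replicate 3 was below all basal T5 libraries in 91 members, and replicate 1 was above all of them in 79.

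**Figure D2:**
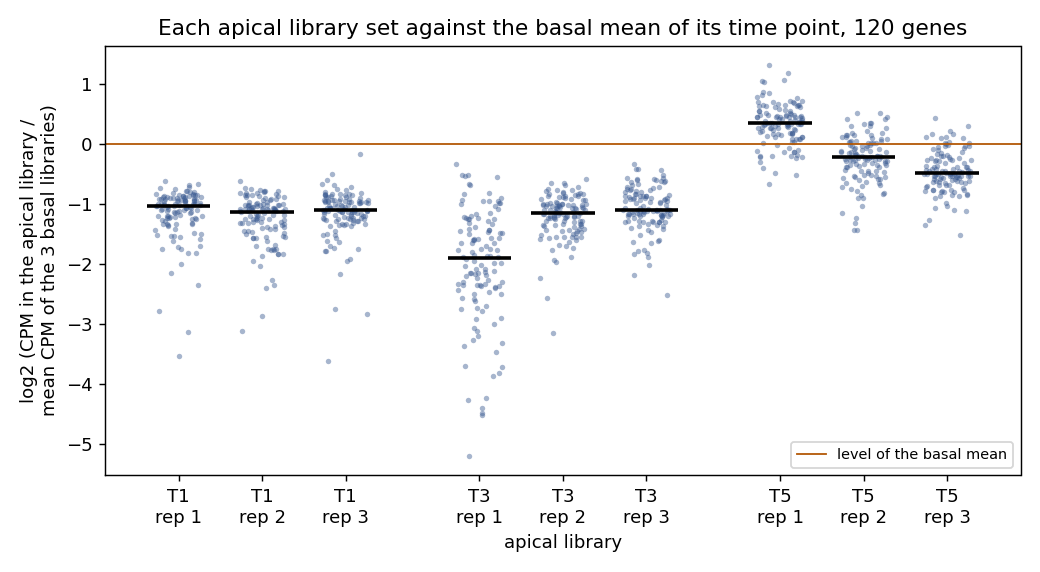
Log2 ratio of the CPM in each of the 9 apical libraries to the mean CPM of the 3 basal libraries of the same time point, 1 point per gene for the 120 genes, with the median as a black bar and the basal level as a line at 0. The medians of the T5 libraries lie above the line in replicate 1 (0.35) and below it in replicates 2 (-0.22) and 3 (-0.49).

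Without apical T5 replicate 1, the basal to apical ratio at T5 had a median of 1.28 (0.779 to 2.06). In that case 71 members remained within the window, 49 lay above it and none below, and all basal libraries exceeded both remaining apical libraries in 53 members. Each of the 3 apical T5 libraries was on its own between 0.75 and 1.33 times the basal mean in 18 members (15%). In these 18 every apical T5 library taken alone met the T5 limits, and they included PRUPE_1G047400, PRUPE_1G140500, PRUPE_1G577300, PRUPE_2G262900, PRUPE_8G172900 and PRUPE_1G308600.

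With all libraries, the larger part of the change between T3 and T5 lay in apical buds, upward. The mean CPM of the members changed by a median of -0.34 (log2) in basal buds and of 0.95 in apical buds between T3 and T5, against -0.13 and 0.46 over the 3644 basal-high genes and -0.17 and -0.04 over all genes with at least 1 CPM. An upward apical change was thus shared, at smaller size, by basal-high genes at large. Basal means were lower at T5 in 89 and higher in 31 of the 120, while apical means were lower in 12 and higher in 108. In 77 members the basal mean was lower and the apical mean higher at T5, in 31 both were higher with the larger step in apical buds, and in 12 both were lower with the larger step in basal buds. The basal change was the larger in size in 34 members and the apical change in 86. The apical change was also the larger in 2383 of the 3644 basal-high genes and in 10258 of the 17757 expressed genes. That the basal change is below the apical one is fixed by the choice of the genes; only its division between both positions is free.

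These shares rested in part on the 2 apical libraries named above. The median apical change was 0.68 without apical T3 replicate 1, 0.62 without apical T5 replicate 1, and 0.40 without both. The last value was close in size to the basal median of -0.34, so in CPM the larger part was then no longer clearly apical. With all libraries, the basal median of -0.34 in CPM became -0.20 after scaling by TMM, which corrects for library composition. The apical median became 0.98. TMM-scaled medians without the 2 apical libraries are not given here. Without both, 56 members had the basal mean lower and the apical mean higher at T5, 31 had both higher and 33 both lower. The apical change was then the larger in 63 members. It was the larger in 1942 of the 3644 basal-high and 9961 of the 17757 expressed genes, so the 63 are no trait of the members. Without both, the apical median was 0.14 over the 3644 basal-high genes and -0.10 over all expressed genes.

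Genes were tested between time points within each position with the edgeR quasi-likelihood test, over the 19304 genes that passed the filter on low counts in basal and the 19636 that passed it in apical buds, with an FDR below 0.01 and at least a 2-fold change required. All 120 members passed both filters. Since the genes were chosen on the same libraries, the calls describe the members and do not stand as independent evidence. At T5 against T3, 14 members (11.7%) were lower in basal buds, where 9.0% of all tested genes were called lower, and 4 were higher against a background of 8.55%. In apical buds 30 members (25%) were higher at T5 than at T3 against a background of 8.67%, and 3 were lower against a background of 12.1%. Among the 3644 basal-high genes, which include the members and are the most like them, 4.99% were called lower in basal buds and 12.8% higher in apical buds. Against those genes the members had the larger share in both positions. Without both apical libraries, the apical calls were 26 higher and 5 lower, for which the share of all genes in that fit is not given here.

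Sorted by both calls, 26 members rose in apical buds only, 11 fell in basal buds only, 4 rose in both positions, 3 fell in both and 76 were called in neither. The corresponding shares of all 17757 expressed genes were 3.13% for apical higher only, 2.82% for basal lower only, 5.29% for both higher, 6.04% for both lower and 74.3% for neither. A change called in 1 position only, in the direction that narrows the gap, was therefore more frequent in members than in all genes in apical buds (21.7% of members) and in basal buds (9.17%), as the choice of the genes favours. No member was called as a basal fall and an apical rise at once, and neither was any of the 17757 expressed genes (0.0%). The 26 had a median change in mean CPM of 0.33 in basal and 1.55 in apical buds, and the 11 one of -1.53 in basal and -0.20 in apical buds. The 76 without a call had medians of -0.40 and 0.88, in the same directions as the members together. In the plot of changes by position, the 3 that fell in both positions stand apart. Their basal changes were -2.99 or lower, while no other member went below -1.95. The ranges of the other groups overlap or adjoin, in a band that the choice of the genes shapes.

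**Figure D3:**
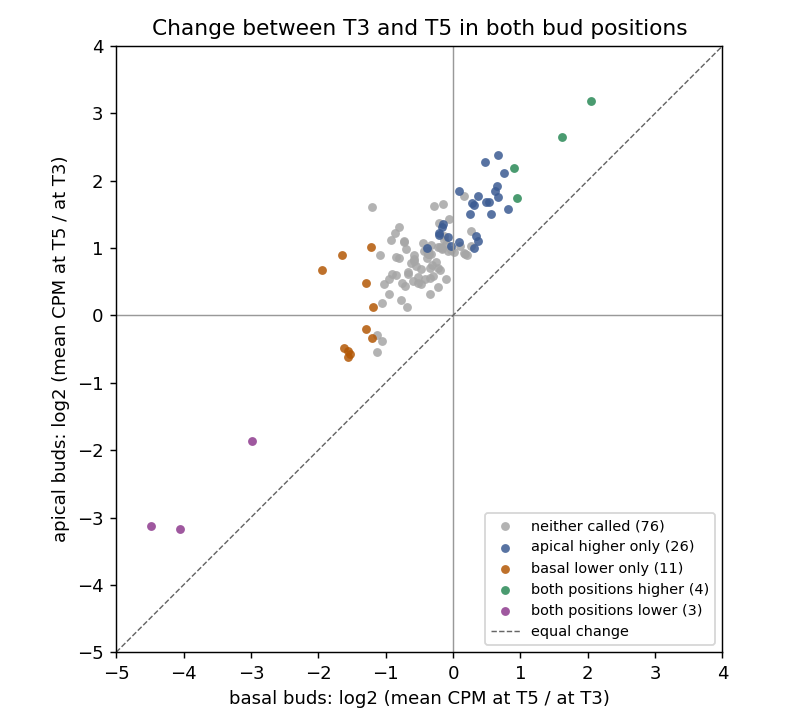
Log2 change of the mean CPM between T3 and T5 in basal buds (horizontal) and apical buds (vertical), 1 point per gene for the 120 genes, coloured by the edgeR calls in both positions; the dashed line marks equal change. All points lie above the line, as the choice of genes requires, and 26 genes were called higher in apical buds only against 11 called lower in basal buds only.

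With T1 in place of T3 as the start, 15 members were lower at T5 in basal buds against a background of 9.96%, and 11 were higher against 9.48%. In apical buds 37 were higher against 9.51%, and 3 were lower against 12.8%. Of the 14 basal falls from T3, 9 were also called from T1, and of the 30 apical rises, 25 were. The highest apical library exceeded the lowest by a median factor of 2.06 at T3, against 1.22 at T1, so that T1 is the tighter start. The median change from T1 to T5 was -0.48 in basal buds, and in apical buds it was 0.69 with all libraries and 0.36 without apical T5 replicate 1. In CPM and counted from T1, the larger median step was thus apical with all libraries and basal without that library. Over all expressed genes the CPM medians were -0.23 in basal buds and -0.19 in apical buds without that library. After TMM scaling, the fitted medians of the members were -0.27 in basal and 0.82 in apical buds with all libraries. Such medians without that library are not given here, so the switch to basal holds in CPM only.

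Between T1 and T3 members moved in both directions, and few were called. Their median change in mean CPM was -0.03 in basal and -0.22 in apical buds, and the apical value was -0.04 without apical T3 replicate 1. In basal buds 5 members were higher at T3 than at T1 (background 0.528%) and 3 were lower (background 0.523%). In apical buds 1 was higher (background 0.056%) and none was lower (background 0.0%). The basal shares of 4.17% higher and 2.5% lower were above their backgrounds. They were also above the shares of the 3644 basal-high genes, 0.878% and 0.467%. Among the 89 genes that were as strongly basal-high but stayed above the T5 window, the shares were larger, 14.6% and 6.74%. The excess over all genes was therefore not particular to the members. In either direction, 41 members in basal and 12 in apical buds had an unadjusted p under 0.05. The share of all tested genes under that limit is not given here, so these counts cannot be read as a trait of the members. For the apical decrease, edgeR and DESeq2 each called 0.

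PRUPE_2G198100 stood first in the order by the smaller of the T1 and T3 ratios. It measured 3.62, 3.81 and 2.48 CPM in basal buds at T1, against 0.285, 0.631 and 0.271 CPM in apical buds. At T3 it measured 6.92, 11.2 and 8.46 CPM in basal buds and 1.70, 3.03 and 1.96 CPM in apical buds. At T5 it measured 3.40, 3.53 and 3.90 CPM in basal buds and 5.72, 1.62 and 1.97 CPM in apical buds. Basal buds peaked at T3 and then fell, by 1.16 on the log2 scale (SE 0.20), while at T5 apical replicate 1 alone lay above the basal libraries and the other 2 well below them. The basal rise between T1 and T3 was 1.48 (SE 0.20, edgeR quasi-likelihood test, Benjamini-Hochberg adjusted p = 0.000918). The apical change between T1 and T3 was 2.57 (SE 0.55), with no overlap between the groups, and was not called (edgeR quasi-likelihood test, Benjamini-Hochberg adjusted p = 0.0715). The basal fall was -0.97 and no longer called without basal T3 replicate 2, the highest library. Between T1 and T5 the apical rise of 3.09 (SE 0.53) was called, and the basal change of 0.31 (SE 0.21) was not.

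PRUPE_1G513500 combined a strong difference with a high level and was the second most highly expressed member. In basal buds it measured 158, 146 and 184 CPM at T1, 140, 146 and 140 CPM at T3, and 186, 154 and 210 CPM at T5. In apical buds it measured 50.2, 45.6 and 52.6 CPM at T1, 26.3, 44.5 and 57.5 CPM at T3, and 176, 155 and 106 CPM at T5. The apical libraries at T5 all exceeded those at T1 and T3, and apical replicate 3 was the 1 that stayed below all basal libraries. The change from T3 to T5 was 0.51 (SE 0.11) in basal and 1.80 (SE 0.26) in apical buds on the log2 scale. The apical rise was called, and the basal rise, also without overlap, was under 2-fold. At T5 the basal to apical ratio was still 1.26.

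In PRUPE_7G210800 basal buds were highest at T3. They held 12.3, 14.6 and 13.3 CPM at T1, 24.6, 32.1 and 25.5 CPM at T3, and 16.9, 11.4 and 10.5 CPM at T5. Apical buds held 4.0, 3.97 and 4.39 CPM at T1, 5.22, 8.10 and 9.11 CPM at T3, and 22.0, 9.0 and 11.0 CPM at T5. The basal rise between T1 and T3 was 1.08 (SE 0.15, edgeR quasi-likelihood test, Benjamini-Hochberg adjusted p = 0.000972), and the groups did not overlap. Without basal T3 replicate 2 it was 0.96 and not called. The later steps of -0.94 (SE 0.15) in basal and 0.92 (SE 0.29) in apical buds were nearly equal in size and both under 2-fold, so neither was called. The apical step, with overlapping libraries, also missed the FDR limit (edgeR quasi-likelihood test, Benjamini-Hochberg adjusted p = 0.0243). Between T1 and T5 the apical rise of 1.87 (SE 0.30) was called, and the basal change of 0.14 (SE 0.15) was not.

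In PRUPE_1G047400 every basal library was lower and every apical library higher at T5 than at T3. Basal buds measured 8.98, 11.2 and 13.5 CPM at T1, 25.7, 23.2 and 25.6 CPM at T3, and 4.46, 7.52 and 7.34 CPM at T5. Apical buds measured 3.74, 3.82 and 2.98 CPM at T1, 3.10, 5.30 and 4.33 CPM at T3, and 7.02, 6.33 and 7.01 CPM at T5. The 3 apical T5 libraries lay close together and within the basal range. Basal buds changed by -1.83 (SE 0.20) and apical buds by 0.73 (SE 0.20) between T3 and T5 on the log2 scale, of which the basal change alone was called. A basal rise of 1.2 (SE 0.19) between T1 and T3 came before it (edgeR quasi-likelihood test, Benjamini-Hochberg adjusted p = 0.00193). Between T1 and T5, by contrast, the apical rise of 1.08 (SE 0.20) was called and the basal change of -0.63 (SE 0.20) was not.

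The fifth in order of ratio, PRUPE_4G232400, was near the lower limit of expression. Basal buds had 1.54, 1.45 and 1.66 CPM at T1, 1.75, 2.64 and 1.92 CPM at T3, and 1.54, 0.543 and 0.655 CPM at T5. Apical buds had 0.666, 0.378 and 0.469 CPM at T1, 0.150, 0.237 and 0.593 CPM at T3, and 1.51, 0.340 and 1.13 CPM at T5. At T5 both positions spread about as widely as the earlier difference between them, and no time contrast of this gene was called.

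PRUPE_7G154000 was the most highly expressed member. It had 779, 656 and 844 CPM in basal buds at T1, 672, 708 and 633 CPM at T3, and 680, 522 and 534 CPM at T5. Apical buds had 401, 377 and 395 CPM at T1, 122, 277 and 308 CPM at T3, and 787, 494 and 371 CPM at T5. Basal buds hardly moved between T3 and T5 (-0.08, SE 0.10), whereas apical buds rose by 1.24 (SE 0.32). The lowest apical T3 library and the highest apical T5 library were the 2 set apart above, and the call was lost in 10 of 17 alternative analyses, with a change of 0.94 without the first of them, 0.96 without the second and 0.66 without both.

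The third by level, PRUPE_8G172900, behaved evenly. Basal buds had 115, 141 and 98.1 CPM at T1, 104, 121 and 136 CPM at T3, and 105, 111 and 127 CPM at T5. Apical buds had 49.4, 54.4 and 66.1 CPM at T1, 42.6, 58.3 and 80.7 CPM at T3, and 114, 125 and 112 CPM at T5. The apical T5 libraries lay between 112 and 125 CPM and exceeded all earlier apical libraries. The apical change from T3 to T5 of 0.99 (SE 0.21) was just under 2-fold and so outside the calls, and the basal change was 0.07 (SE 0.14).

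The 2 largest apical rises among members without overlap between T3 and T5 came with a smaller rise in basal buds. PRUPE_1G577300 had 1.54, 0.816 and 1.36 CPM in basal buds at T1, 2.32, 1.88 and 1.49 CPM at T3, and 7.34, 7.64 and 8.62 CPM at T5. In apical buds it had 0.539, 0.347 and 0.641 CPM at T1, 1.2, 0.947 and 0.542 CPM at T3, and 9.94, 6.75 and 7.71 CPM at T5. It rose by 2.21 (SE 0.20) in basal and by 3.21 (SE 0.30) in apical buds between T3 and T5. All libraries of both positions at T5 exceeded all earlier ones.

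PRUPE_2G262900 followed the same course. It had 3.74, 4.99 and 4.11 CPM in basal buds at T1, 4.27, 5.47 and 3.28 CPM at T3, and 12.4, 11.9 and 15.7 CPM at T5. Apical buds had 2.32, 2.36 and 2.17 CPM at T1, 1.95, 2.13 and 2.73 CPM at T3, and 14.9, 16.8 and 11.0 CPM at T5. The rise between T3 and T5 was 1.77 (SE 0.19) in basal and 2.68 (SE 0.20) in apical buds, with no overlap between T3 and T5 in either. The remaining members called higher in both positions were PRUPE_6G239200, with 1.09 (SE 0.13) in basal and 1.77 (SE 0.14) in apical buds, and PRUPE_6G130400, with 1.06 (SE 0.17) and 2.22 (SE 0.25).

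PRUPE_5G153000 had the third of the largest apical rises. Basal buds measured 4.78, 3.08 and 4.18 CPM at T1, 3.96, 3.56 and 4.07 CPM at T3, and 5.84, 6.63 and 6.0 CPM at T5. Apical buds measured 1.93, 1.04 and 1.55 CPM at T1, 1.07, 1.33 and 0.954 CPM at T3, and 7.78, 5.37 and 4.27 CPM at T5. The apical rise of 2.42 (SE 0.28) was called, and the basal change of 0.80 (SE 0.15) was under 2-fold.

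Of the other members called in apical buds only, PRUPE_1G140500 was even across libraries, and was picked after its values were seen. It had 26, 32.5 and 36.4 CPM in basal buds at T1, 38.4, 40.0 and 42.2 CPM at T3, and 54.9, 59.5 and 60.2 CPM at T5. Apical buds had 12.4, 15 and 13.4 CPM at T1, 14.4, 14.1 and 16.3 CPM at T3, and 47.6, 45.8 and 51.0 CPM at T5. Its libraries did not overlap between positions at T5, with basal buds 1.21 times as high, so it narrowed the gap in every apical library without closing it. The apical rise between T3 and T5 was 1.73 (SE 0.12) and the basal change 0.67 (SE 0.11), which was under 2-fold.

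The 3 members that fell in both positions had the largest basal falls among members without overlap between T3 and T5. PRUPE_2G227300 had 3.43, 2.45 and 3.23 CPM in basal buds at T1, 3.76, 3.56 and 4.12 CPM at T3, and 0.233, 0.116 and 0.164 CPM at T5. Apical buds had 1.21, 1.29 and 1.38 CPM at T1, 1.87, 1.04 and 1.03 CPM at T3, and 0.239, 0.105 and 0.110 CPM at T5. It fell by 4.24 (SE 0.25) in basal and by 3.04 (SE 0.39) in apical buds on the log2 scale. At T5 no library of either position was above 0.239 CPM. Both positions were then near the floor, so a remaining position difference could hardly be seen.

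PRUPE_3G041700 showed the same near loss. Basal buds had 3.89, 3.44 and 3.06 CPM at T1, 3.39, 2.64 and 2.95 CPM at T3, and 0.254, 0.155 and 0.131 CPM at T5. Apical buds had 1.49, 2.02 and 2.12 CPM at T1, 1.5, 1.52 and 1.78 CPM at T3, and 0.215, 0.209 and 0.110 CPM at T5. It fell by 3.82 (SE 0.26) in basal and by 3.07 (SE 0.29) in apical buds, again to levels too low to judge evenness closely.

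PRUPE_5G164500 was the most abundant of the 3. Basal buds had 19.3, 29.6 and 24.1 CPM at T1, 47.5, 48.7 and 37.0 CPM at T3, and 6.24, 5.62 and 4.95 CPM at T5. Apical buds had 12.2, 11.5 and 11.4 CPM at T1, 14.2, 15.3 and 18.1 CPM at T3, and 4.84, 3.19 and 4.97 CPM at T5. It fell by 2.84 (SE 0.16) in basal and by 1.84 (SE 0.17) in apical buds on the log2 scale. Both positions had their highest means at T3.

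A basal fall without a called apical change was seen in 11 members, of which PRUPE_5G074200, picked after its values were seen, is an example. It had 23.8, 20.6 and 26.6 CPM in basal buds at T1, 21.1, 20.5 and 22.0 CPM at T3, and 8.14, 10.0 and 9.83 CPM at T5. Apical buds stayed between 7.95 and 12.6 CPM in all 9 libraries. The basal change from T3 to T5 was -1.05 (SE 0.12) and the apical one 0.16 (SE 0.15). Among the 11, the apical change in mean CPM ranged from -0.62 to 1.02.

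**Figure D4:**
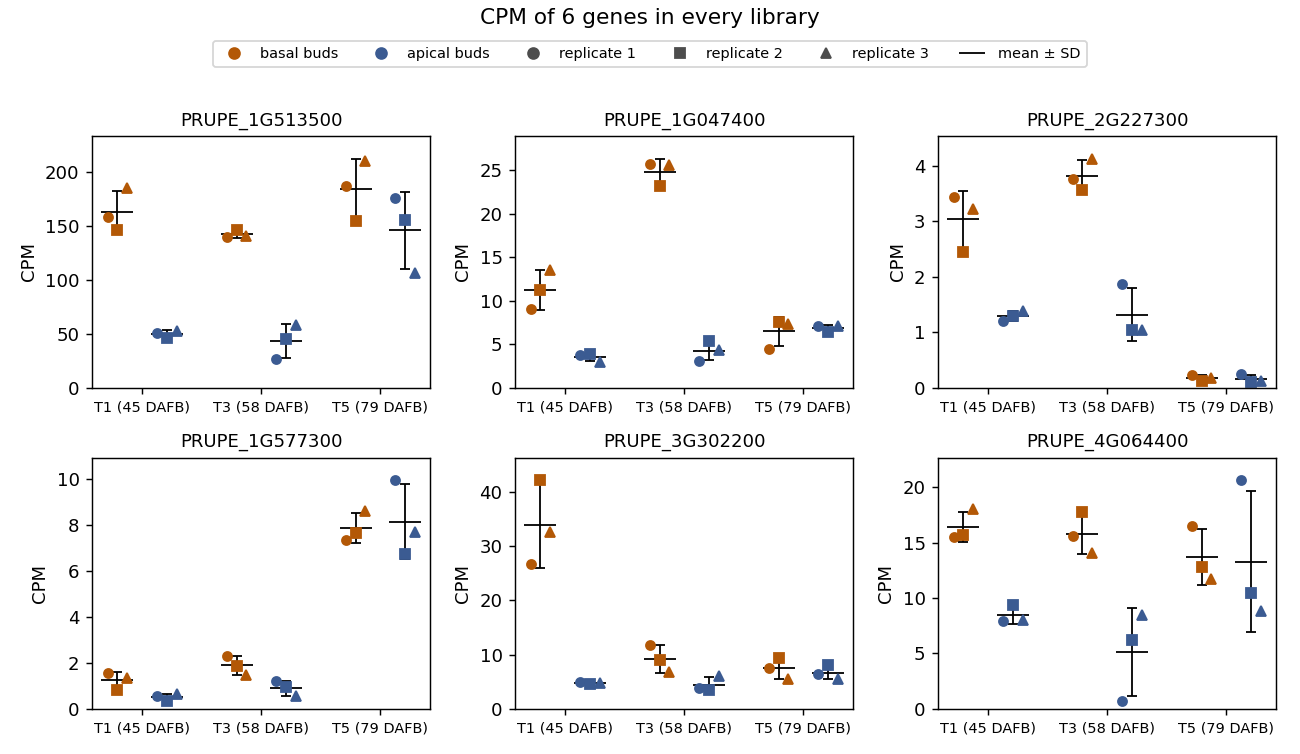
CPM in each of the 18 libraries for 6 genes, with the mean ± SD (n = 3) of each group, basal buds left of apical buds at T1, T3 and T5; each panel has its own linear axis from 0. From T3 to T5, PRUPE_1G513500 approached the basal level by an apical rise. PRUPE_1G047400 levelled by a basal fall beside a smaller apical step that was not called. PRUPE_2G227300 fell to near the floor in both positions, where evenness is hard to judge, and PRUPE_1G577300 levelled by a rise in both. PRUPE_3G302200 lost most of its basal excess by T3, and PRUPE_4G064400 (picked after its values were seen) shows the spread of the apical libraries at T3 and T5.

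In 3 members basal buds were called lower at T3 than at T1. PRUPE_3G302200 had 26.6, 42.1 and 32.7 CPM in basal buds at T1, 11.8, 8.95 and 6.71 CPM at T3, and 7.51, 9.30 and 5.54 CPM at T5. Apical buds had 4.92, 4.63 and 4.74 CPM at T1, 3.92, 3.46 and 5.98 CPM at T3, and 6.51, 8.01 and 5.55 CPM at T5. The basal fall between T1 and T3 was called at -1.85 (SE 0.22, edgeR quasi-likelihood test, Benjamini-Hochberg adjusted p = 0.000472), whereas the basal change from T3 to T5 was -0.16 (SE 0.24). Its basal to apical ratio was 7.10 at T1, 2.06 at T3 and 1.11 at T5.

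PRUPE_4G035300 began in the same way. Basal buds had 57.6, 99.3 and 74.4 CPM at T1, 34.9, 21.8 and 18.4 CPM at T3, and 35.0, 41.0 and 35.1 CPM at T5. Apical buds had 8.79, 8.95 and 11.5 CPM at T1, 14.1, 11.5 and 13.4 CPM at T3, and 26, 50.8 and 33.8 CPM at T5. The basal change of -1.59 (SE 0.23) between T1 and T3 (edgeR quasi-likelihood test, Benjamini-Hochberg adjusted p = 0.00132) was followed by an apical rise of 1.55 (SE 0.25). The third member with a basal fall between T1 and T3 was PRUPE_8G111400, at -1.17 (SE 0.15, edgeR quasi-likelihood test, Benjamini-Hochberg adjusted p = 0.000729).

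PRUPE_1G334000 was the only member called between T1 and T3 in apical buds. Basal buds had 5.40, 5.47 and 5.03 CPM at T1, 16.2, 13.9 and 13.6 CPM at T3, and 23.7, 32.8 and 20.7 CPM at T5. Apical buds had 2.25, 2.52 and 2.37 CPM at T1, 5.42, 7.96 and 7.46 CPM at T3, and 22.3, 21.2 and 18.9 CPM at T5. In both positions the libraries of each time point lay above all of those of the one before, and basal libraries lay above apical ones until T5. The rise between T1 and T3 was 1.51 (SE 0.16) in basal buds (edgeR quasi-likelihood test, Benjamini-Hochberg adjusted p = 0.000284) and 1.63 (SE 0.16) in apical buds (adjusted p = 0.00485), and the apical call was lost in 9 of 17 alternative analyses, in which the change lay between 1.54 and 1.67. The fifth basal rise between T1 and T3 was in PRUPE_5G023400, at 1.28 (SE 0.15, edgeR quasi-likelihood test, Benjamini-Hochberg adjusted p = 0.000433).

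Several members lie next to each other in the order of the gene identifiers. Between PRUPE_1G196100 and PRUPE_1G199100 there are 31 identifiers in the table, of which 24 reached 1 CPM and 6 were members (PRUPE_1G196100, PRUPE_1G196200, PRUPE_1G196800, PRUPE_1G198000, PRUPE_1G198100 and PRUPE_1G199100). Of the other 18 expressed genes in that stretch, 2 were separated with basal buds higher at T1 and T3. The stretch was noticed in the data and was not tested. Of the 6, only PRUPE_1G199100 was called, as a basal fall of -1.47 (SE 0.27), and the basal changes of the other 5 between T3 and T5 ranged from -0.71 to -0.42.

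Members with consecutive identifiers form 4 pairs: PRUPE_1G196100 with PRUPE_1G196200, PRUPE_1G198000 with PRUPE_1G198100, PRUPE_4G064400 with PRUPE_4G064500, and PRUPE_5G155100 with PRUPE_5G155200. If such neighbours are near-identical copies, their reads could have been split between them, which was not tested. In basal buds PRUPE_4G064400 had 15.5, 15.7 and 18 CPM at T1, 15.6, 17.8 and 14.1 CPM at T3, and 16.5, 12.8 and 11.8 CPM at T5. In apical buds it had 7.96, 9.33 and 7.99 CPM at T1, 0.750, 6.25 and 8.46 CPM at T3, and 20.6, 10.5 and 8.80 CPM at T5. Apical T3 replicate 1 was far below the other 2 libraries of its group in this gene, and in 14 members it was under 0.25 of their mean. The basal change of PRUPE_4G064400 between T3 and T5 was -0.06 (SE 0.11) on the log2 scale, and its apical change of 1.4 (SE 0.61) between T3 and T5 was not called.

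At the edge of the choice, the last 2 members were PRUPE_8G023500 and PRUPE_1G108000, with smaller ratios of 1.85 and 1.84, and the first 2 genes outside were PRUPE_3G145100 and PRUPE_6G121800, with 1.84 and 1.84. The pattern did not stop at the edge: PRUPE_8G023500 had T5 means of 56.0 ± 4.55 CPM in basal and 51.7 ± 19.7 CPM in apical buds, and PRUPE_3G145100 had 2.32 ± 0.526 CPM and 2.28 ± 1.04 CPM (SD, n = 3 each).

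Set beside the 89 genes that were as strongly basal-high at T1 and T3 but stayed above the window at T5, the members had fewer basal rises. Among the 120 members, 14 were called lower and 4 higher in basal buds between T3 and T5, against 12 lower and 21 higher among the 89. The lower calls in basal buds made up 11.7% of the members and 13.5% of the 89. In apical buds 30 of the 120 (25%) were called higher, against 27 of the 89 (30.3%). The median change was -0.34 in basal and 0.95 in apical buds for the members, and -0.24 and 0.57 for the 89. The rule separates these sets by their T5 ratio, so the contrast is a description and was not tested.

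The mirror image of the rule gives genes that were higher in apical buds at T1 and T3 and level at T5. In the 120 strongest of these, apical buds again moved the more, but downward. The median change between T3 and T5 was 0.08 in basal and -1.79 in apical buds, with 81 (67.5%) called lower in apical buds against a background of 12.1%. With all libraries, therefore, the larger median step between T3 and T5 was in apical buds in both sets, toward the level of the basal ones. For the members this was much weaker without apical T3 replicate 1 and apical T5 replicate 1, with medians of 0.40 in apical and -0.34 in basal buds. The mirrored set is given with all libraries only.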

How the data were processed

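RNA-Seq libraries were made by the authors with the TruSeq Stranded mRNA kit from axillary buds and sequenced on a NextSeq 500, and the reads were aligned with Hisat2 to the peach genome v2.0.a1 and counted per gene with HTSeq. The counting mode, the strand setting and the versions are not given in the sources used here, so it is open how reads shared by overlapping genes or by close copies were treated. The deposited values are raw counts for 26873 genes without normalization, and 0 of the sample columns were left unused. The names of the libraries give the time point, the replicate and UP or DOWN, read here as apical and basal.

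CPM was the raw count divided by the total of its library. The members, the comparison sets and the lists were chosen with earlier results of these data known. Time points were compared within each position (9 libraries per fit) with edgeR 4.0.16 in R 4.3.3 on TMM-scaled counts after filterByExpr. P-values were adjusted by Benjamini-Hochberg over all genes tested, and a call needed an FDR below 0.01 and a 2-fold change. The SE of a log2 change was obtained from its size and the F statistic (absolute change over root F). On simulated counts, 200 genes changed by 1.5 (log2) were recovered to 91% in the basal (19304 genes) and 76.5% in the apical comparison (19636 genes), with 1 and 3 false calls. How many false calls arise when 1 library shifts in many genes at once, as apical T3 replicate 1 and apical T5 replicate 1 did, was not tested. The total counts per library had a median of 32404377.5. The 3 libraries per group limit the precision, and p-values measure the spread between these pools of buds.

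The genes named were, by rule, the 5 with the largest smaller ratio, the 3 with the highest mean CPM, the 3 with the lowest basal and the 3 with the highest apical change between T3 and T5, the 3 with the largest called change between T1 and T3 (uncalled changes were not ranked), the 2 with the highest basal change between T3 and T5, and the 2 genes on each side of the limit of 120. Others are marked as picked after their values were seen, or complete a count of 5 or fewer. Alternatives were DESeq2 1.42.0, other scalings, no filter, 1 fit of all libraries, an FDR of 0.05 without a fold limit, T1 as the start, the replicate number as a block, other limits of the rule, each library left out in turn and, chosen after seeing the data, apical T3 replicate 1 and apical T5 replicate 1 left out together. Of the gene identifiers, 0 matched the RefSeq gene table at hand. Plots were made in Python 3.11.15 (matplotlib 3.10.9).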

Additional observations from a re-analysis of the deposited data

Results flagged for a closer look

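PRUPE_1G047400 differed between the positions in its course between T3 and T5. Its log2 change of mean CPM in basal buds minus that in apical buds was -2.62, with all basal libraries lower and all apical libraries higher at T5 than at T3. The difference between the positions was not tested, and its direction follows from the choice of the genes.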

How the results depend on the processing

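Precision is limited by 3 libraries per group and by the spread of the apical libraries at T3 and T5. Member counts in this section come without the share of all genes called under the same setting. A changed count therefore cannot be read as a trait of the members. Of 24 calls of named genes, 19 held in all alternatives, 5 were lost in some and 0 changed direction; for these the cause was not tested. Same-numbered libraries of different time points did not deviate together (correlations from -0.47 to 0.09, 0 of 18 above 0.1). No pairing of the time points by number was therefore seen, though 3 libraries per group cannot exclude one. With the replicate block, 13 members were lower and 4 higher in basal buds and 25 higher and 3 lower in apical buds at T5 than at T3, and 0 members were higher in apical buds at T3 than at T1, against 1 without the block.

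Apical rises between T3 and T5 numbered 49 by DESeq2, 50 in the fit of all 18 libraries and 68 at an FDR of 0.05 with no fold limit, against 30. Members higher in apical buds only were 45 by DESeq2 and 46 in the fit of all 18 libraries, against 26. At the looser limit the basal falls were 49, against 14, and members lower in basal buds only were 33, against 11. Basal rises numbered 2 with library size scaling, 19 at the looser limit and 11 with T1 as the start, against 4. Members lower in basal buds only were 17 with library size scaling, which moved the median of all basal genes to -0.16, against -0.02 with TMM. Between T1 and T3, basal rises were 3 in the fit of all libraries and 15 at the looser limit, against 5, and basal falls were 8 at the looser limit, against 3. The single apical rise between T1 and T3 became 3 by DESeq2, 0 with library size scaling, 3 in the fit of all libraries and 5 without the 2 apical libraries together.

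Without apical T3 replicate 1 and apical T5 replicate 1 together, the median apical change was 0.40, against 0.95, the members with both means lower at T5 were 33, against 12, the apical falls were 5, against 3, and 64 of the 120 genes were chosen again. With a floor of 5 CPM, 66 were chosen again. Leaving out 1 library at a time gave 25 to 38 apical rises, 12 to 16 basal falls, 3 to 6 basal rises, 0 to 2 apical rises between T1 and T3, 4 to 6 basal rises and 2 to 4 basal falls between T1 and T3, and median changes of 0.62 to 1.11 in apical and -0.41 to -0.29 in basal buds. It gave 21 to 34 members higher in apical buds only and 9 to 13 lower in basal buds only, and 71 to 116 of the 120 were chosen again.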
